A study of Homo sapiens with 14 samples.

Results

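EGFR, ERBB2, ERBB3, MET, IGF1R, INSR, AXL, EPHA2, DDR1 and FGFR1 encode receptor tyrosine kinases, and their N6-methyladenosine (m6A) sites and read coverage are described here. The members were chosen by gene symbol: every adenosine that the deposited table of m6A sites lists under 1 of these 10 symbols was taken, which gave 639 of 407343 sites in 10 of 13756 genes. IGF1R had 151 listed sites, EGFR 102, ERBB2 66, MET and EPHA2 64 each, DDR1 52, INSR 50, FGFR1 37, AXL 29 and ERBB3 24. Of the 639 sites, 308 lay in last exons, 303 in internal exons and 28 in first exons, and 258 (40.4%) lay in DRACH, the short sequence motif that METTL3 methylates, against 38.4% of all listed sites.

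The sites were measured by GLORI, a chemistry that turns unmethylated adenosines into a base read as G and leaves methylated ones read as A, so the level of m6A at an adenosine is given here as A reads in percent of A plus G reads. The groups were CAOV3 cells (ovarian carcinoma) kept for 24 h with 1 uM STM3675, and the lines CAOV3, COV644, EFO21 and SKOV3 (all ovarian carcinoma), A549 (lung carcinoma) and OE21 (oesophageal carcinoma) kept for 24 h with the solvent DMSO. Each group had 2 libraries of polyadenylated RNA, 14 in all, and each line is an established cell line that stands for 1 tumour only. The series concerns blocking METTL3, the enzyme of the complex that writes most m6A of messenger RNA, and STM3675 was given in CAOV3 alone. The labels do not say that the 2 libraries of a group came from separate cultures, so p-values measure the spread between libraries, which may be technical.

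Libraries held between 14047302 and 28663588 reads at listed sites. Adenosines outside DRACH, read here as background, had a median level of 3.33% to 4.14% in the COV644 and OE21 libraries and of 8.85% to 15.8% in the others. Among those that passed the listing rule in no library of the same line the medians were 3.10% to 3.77% and 8.00% to 9.09%. SKOV3 replicate 2 was the highest library by the first measure (15.8%) and at 8.00% the lowest outside COV644 and OE21 by the second. Marker sums went with the labels for 5 lines. Of the epithelial markers 7 of 7 had over 20 reads in every group. Ovarian markers summed to 373 to 1360 CPM in the 4 ovarian lines, against 14.8 in A549 and 25.1 in OE21. Squamous markers reached 7550 CPM in OE21, against 57.0 or less elsewhere. Single ovarian markers did not all go with the labels. WT1 had most reads in A549 (388, against 1 in CAOV3 with DMSO), and PAX8 had 749 reads in OE21, against 753 in COV644. In A549 the lung label could not be checked, since NKX2-1 was the only lung marker listed and stood at 0.111 CPM there, below 17.7 CPM in COV644 and 11.6 CPM in OE21. Of 14 markers of other cells, 6 were listed, at 70.9 to 164 CPM outside EFO21 and at 1070 CPM in EFO21, where the endothelial genes PECAM1 and CDH5 led.

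Receptor tyrosine kinases span the cell membrane and, once a ligand brings them together, phosphorylate each other and start the kinase and lipid relays that drive growth, survival and movement. EGFR binds EGF-like ligands, ERBB2 binds no known ligand of its own and works as a partner, and ERBB3 has little kinase activity and signals as a partner, mainly with ERBB2. MET is the receptor of hepatocyte growth factor, IGF1R and INSR bind insulin-like growth factors and insulin, AXL binds GAS6, EPHA2 binds ephrins on neighbouring cells, DDR1 binds collagen and FGFR1 binds fibroblast growth factors. Several of them are amplified or overexpressed in carcinomas, and ERBB2 in the SKOV3 line is a well-known case. In messenger RNA, m6A is concentrated near stop codons, in 3′ untranslated regions and in long internal exons.

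The 5-base surroundings of the sites that the results turn on are shown here as DNA letters of the transcribed strand, taken from the deposited table. They are shown so that sites that kept different shares of their level with STM3675 can be set side by side. The motif agAct occurs among those that kept most and among those that lost most, but these also differed in level with DMSO. The capital A is the adenosine measured, and positions are those of GRCh38, on the minus strand for INSR and EPHA2 and on the plus strand for the others.
EGFR, chromosome 7, position 55205651: agAct
EGFR, chromosome 7, position 55205731: agAct
EGFR, chromosome 7, position 55206269: agAct
EGFR, chromosome 7, position 55206380: aaAct
EGFR, chromosome 7, position 55211180: aaAct
ERBB2, chromosome 17, position 39728431: agAct
ERBB2, chromosome 17, position 39728291: agAct
ERBB3, chromosome 12, position 56101960: aaAct
MET, chromosome 7, position 116699383: ggAct
MET, chromosome 7, position 116796239: ggAct
IGF1R, chromosome 15, position 98707934: ggAct
IGF1R, chromosome 15, position 98961735: gaAct
INSR, chromosome 19, position 7116286: tgAct
INSR, chromosome 19, position 7116278: agAct
AXL, chromosome 19, position 41257627: ggAct
EPHA2, chromosome 1, position 16125127: ggAct
EPHA2, chromosome 1, position 16124790: agAct
DDR1, chromosome 6, position 30899482: ggAca
DDR1, chromosome 6, position 30899427: agAct

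The first comparison asked how m6A at the receptor sites differed between CAOV3 cells with STM3675 and with DMSO. Levels fell at nearly all receptor sites that were well methylated. Sites were tested where each of the 4 CAOV3 libraries had at least 20 reads, with a quasi-binomial model of A and G reads and Benjamini-Hochberg adjusted p-values under 0.05 over all 185923 sites tested. Of the 639 receptor sites 388 could be tested, and 145 fell, against 35.2% of all tested sites, while 1 rose, against 0.309%. Among tested DRACH sites 121 of 166 fell (background 73.9%), and of the DRACH sites whose DMSO level was 25% or above 108 of 110 did so (background 95.1%). Outside DRACH 24 of 222 fell (background 7.87%). These shares are close to those of all sites, so they say nothing particular to the receptors.

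Over the 166 tested DRACH sites the mean level was 12.4% and 12.1% in the STM3675 libraries, against 44.3% and 44.9% in the DMSO libraries. Over the 222 tested sites outside DRACH it was 10.5% and 11.1% with STM3675, against 15.7% and 15.9% with DMSO. The 110 DRACH sites at 25% or more with DMSO kept a median of 0.202 of their level, and all 53040 such sites kept 0.185, with quartiles of 0.133 and 0.263. Kept shares, here and below, are of levels as deposited, with no background removed. With STM3675 the 110 sites averaged 12.9%, while the median level outside DRACH was 8.89% and 8.85% in those libraries. How much of a kept level is background was not tested. Since an adenosine is listed only if at least 1 DMSO library gave it 20 reads and a level of 25%, an adenosine that gains m6A with STM3675 alone would be missed, and those close to the limit were picked while high.

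**Figure D1:**
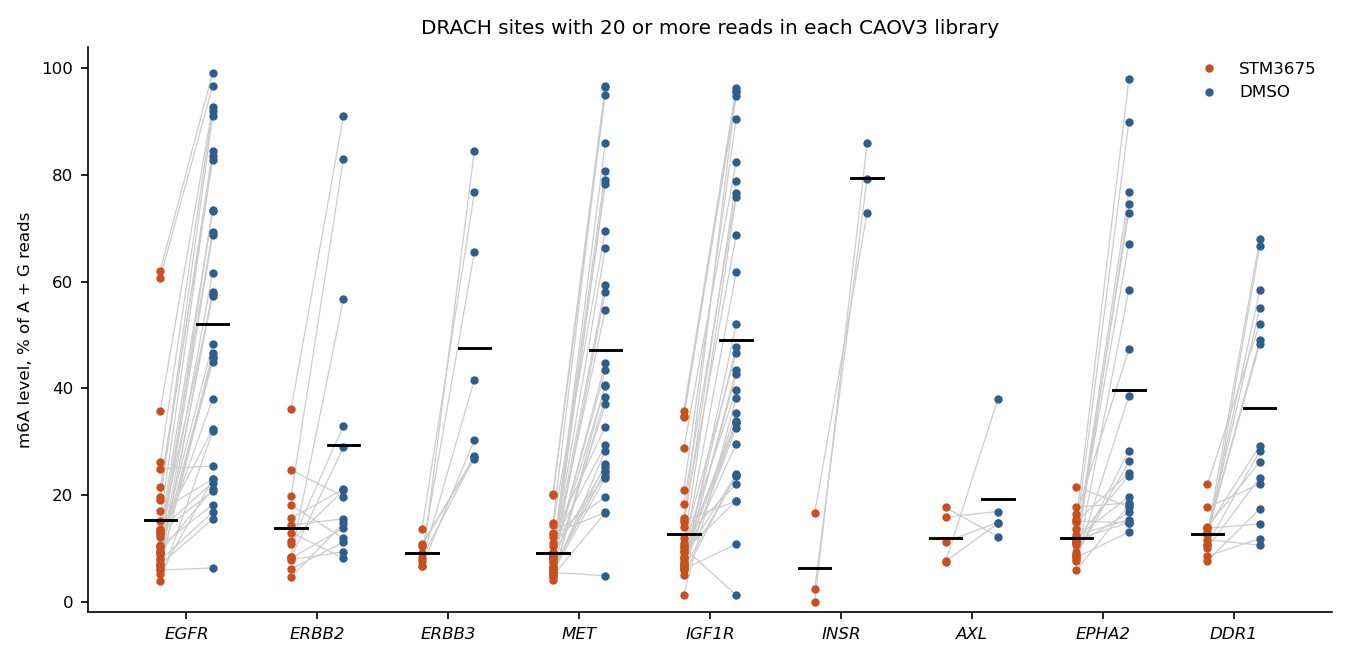
m6A level (y axis, % of A and G reads that are A) of each DRACH site tested in CAOV3, by gene, as the mean of 2 libraries with STM3675 (left, orange) and with DMSO (right, blue), joined by a grey line, with black bars for the mean over sites. Levels with STM3675 gather near 12.3% over the 166 sites, against 44.6% with DMSO, and a pair of EGFR sites stands apart at 62.0% and 60.7% with STM3675.

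EGFR had the most tested sites, 86, of which 35 fell. Summed over them, 12.8% and 12.4% of reads were A in the STM3675 libraries, against 47.1% and 46.7% in the DMSO libraries, a difference of -34.3 points (quasi-binomial model, adjusted p = 2.3e-20). The groups did not overlap. Most of its well methylated sites lay in the last exon, exon 28, which is 6373 nt long.

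The highest EGFR level with DMSO was at 55205651, 395 nt into that exon, where 61.0% and 63.0% of 82 and 46 reads were A with STM3675, against 100.0% and 98.3% of 119 reads each with DMSO (adjusted p = 3.9e-14). A neighbour at 55205731, chosen after its values were seen, had 58.8% and 62.7% of 194 and 158 reads with STM3675, against 96.9% and 96.4% of 192 and 167 reads with DMSO. Both fell, yet they kept 0.625 and 0.628 of their DMSO level. Of all 8828 tested DRACH sites at 90% or more with DMSO, 1.80% and 1.72% kept as large a share or larger, the median being 0.197 and the quartiles 0.143 and 0.280. The same surroundings, agAct, occurred at 55206269, 1013 nt into the exon, where 35.5% and 36.1% of reads were A with STM3675, against 94.7% and 90.8% with DMSO, which is a kept share of 0.386. At 55206345, a further agAct site 1089 nt into the exon, the kept share was 0.284.

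Farther along the same exon levels fell lower. The site at 55206380 had 13.7% and 16.6% of 1361 and 1062 reads with STM3675, against 82.0% and 85.1% of 1923 and 1393 reads with DMSO. The largest EGFR fall, -72.1 points, was at 55206485, with 17.4% and 20.7% with STM3675, against 89.3% and 92.9% with DMSO (adjusted p = 1e-32). The smallest change was at 55157702 in internal exon 11, with 13.5% and 36.4% with STM3675, against 26.9% and 24.0% with DMSO (adjusted p = 0.77). That site had 22 to 52 reads, its groups overlapped, and it was listed through CAOV3 DMSO replicate 1 alone.

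**Figure D2:**
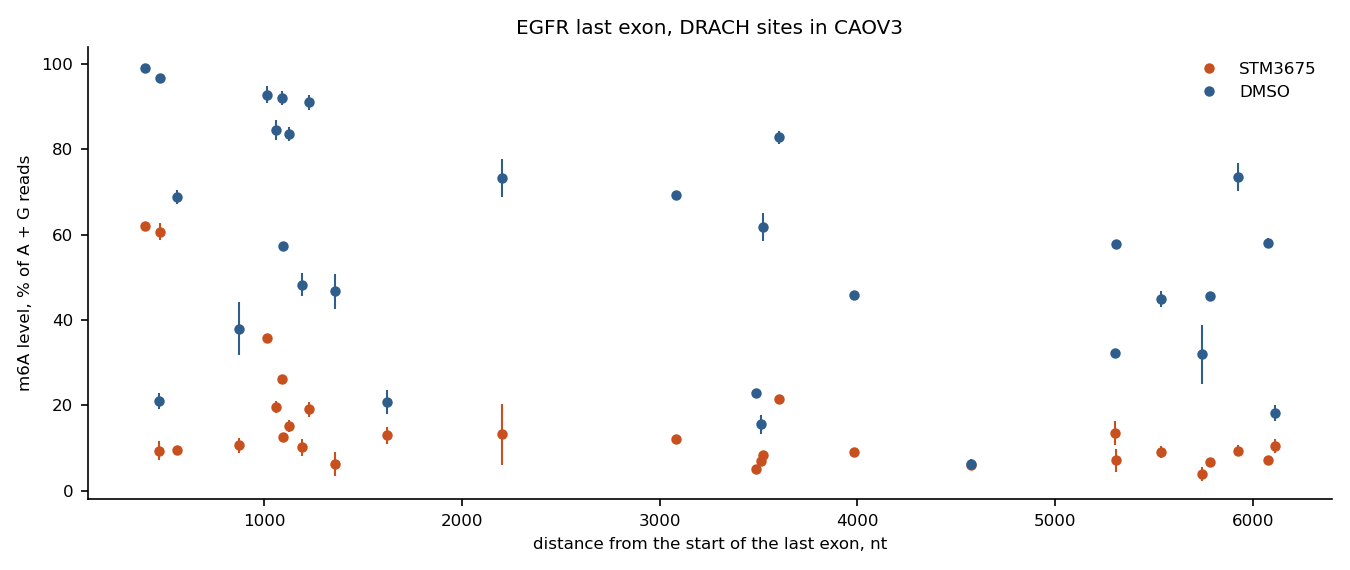
m6A level (y axis, % of A and G reads) of the DRACH sites of the EGFR last exon tested in CAOV3, by distance from the start of the exon (x axis, nt), with STM3675 (orange) and DMSO (blue); points are means of 2 libraries and bars join the libraries. The sites at 395 and 475 nt stand at 62.0% and 60.7% with STM3675, against 99.2% and 96.6% with DMSO, above the other sites with STM3675.

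Among all 15 receptor DRACH sites at 90% or more with DMSO, the kept share ran from 0.152 at MET 116796239 to the 0.628 of EGFR, with a median of 0.284. The sites at EPHA2 16125127 and IGF1R 98707934 kept 0.158 and 0.156, and ERBB2 39728431 kept 0.396. Sites that were nearly fully methylated with DMSO thus kept quite different shares with STM3675. Sites with the same surroundings also kept different shares. A pair of agAct sites in EGFR kept 0.625 and 0.628, while the other EGFR agAct sites given above kept less, and ERBB2 39728431, also agAct, kept 0.396. The agAct sites at EPHA2 16124790, DDR1 30899427, INSR 7116278 and ERBB2 39728291 kept 0.152, 0.187, 0.229 and 0.238. These last sites stood lower with DMSO, at 67.9% to 83.1%, so the contrast is not one of equal levels.

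ERBB2 and ERBB3, the partners of EGFR, had fewer tested DRACH sites. Of them 5 of 15 in ERBB2 and 8 of 8 in ERBB3 were at 25% or more with DMSO, against 25 of 34 in EGFR. In ERBB2 12.9% and 12.5% of reads at 34 tested sites were A with STM3675, against 26.1% and 29.1% with DMSO (difference -14.9 points, adjusted p = 9.6e-09). Its highest site, 39728431 in the last exon, had 34.3% and 37.8% with STM3675, against 87.8% and 94.4% with DMSO. The largest ERBB2 fall was at 39728291, also in the last exon, with 23.1% and 16.5% with STM3675, against 76.9% and 89.2% with DMSO. The smallest among sites at 25% or more was -20.7 points at 39728103 (adjusted p = 0.0059), which missed the threshold under limma (adjusted p = 0.063) and without DMSO replicate 2 or either STM3675 library (adjusted p = 0.26, 0.21 and 0.094). In ERBB3 9.56% and 7.33% of reads at 19 tested sites were A with STM3675, against 26.0% and 31.2% with DMSO (difference -20.1 points, adjusted p = 4.9e-10). Its last-exon site at 56101960 had 6.84% and 6.67% of 190 and 180 reads with STM3675, against 89.6% and 79.5% of 48 and 83 reads with DMSO, a kept share of 0.0799, the lowest of the 8 ERBB3 DRACH sites. The first-exon site at 56080267 had 10.1% and 11.6% with STM3675, against 19.2% and 34.3% with DMSO, and did not pass (adjusted p = 0.056). It was listed through CAOV3 DMSO replicate 2 alone.

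MET carried m6A in a long internal exon as well as in its last exon. Over 56 tested sites 8.09% and 8.77% of reads were A with STM3675, against 40.4% and 41.6% with DMSO (difference -32.5 points, adjusted p = 8.1e-19). Exon 2, an internal exon of 1214 nt, held 13 tested DRACH sites that averaged 10.8% with STM3675 against 53.2% with DMSO. One of them, 116699383, had 17.6% and 22.8% with STM3675, against 96.8% and 96.6% with DMSO. The smallest fall of a MET site at 25% or more was in the same exon, at 116699287. That site was listed through CAOV3 DMSO replicate 1 alone, so its DMSO level was picked while high and the test is not independent of the listing. It had 6.06% and 11.9% with STM3675, against 26.3% and 24.4% with DMSO (adjusted p = 0.002). This call was lost under limma (adjusted p = 0.061) and without DMSO replicate 1 (0.086), DMSO replicate 2 (0.07) or STM3675 replicate 1 (0.2). The largest MET fall, -81.8 points, was in the last exon at 116796239, with 13.9% and 15.4% of 889 and 714 reads with STM3675, against 96.5% in both DMSO libraries with 483 and 455 reads.

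EPHA2 also had a methylated long internal exon, exon 3 of 670 nt, whose 7 tested DRACH sites averaged 9.92% with STM3675 against 45.3% with DMSO. Over 50 tested EPHA2 sites 10.8% and 11.1% of reads were A with STM3675, against 42.5% and 44.3% with DMSO (difference -32.5 points, adjusted p = 2.1e-17). Its last-exon site at 16125127 gave both its highest level and its largest fall, with 13.1% and 17.9% of 475 and 397 reads with STM3675, against 98.1% and 97.8% of 365 and 454 reads with DMSO. The smallest fall, -17.5 points at 16148815 in exon 3, still passed (adjusted p = 3.5e-09).

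Short internal exons behaved otherwise. Across the receptors, 35 tested DRACH sites in internal exons under 400 nt averaged 12.7% with STM3675 against 19.2% with DMSO, and 6 of them fell (background over all genes 34.5%). The 22 in internal exons of 400 nt or more averaged 10.3% against 51.9%, and 20 fell (background 82.1%), while the 106 in last exons averaged 12.7% against 52.1%, and 94 fell (background 81.7%). Over all genes the DMSO means were 23.0% in the 10384 sites of shorter internal exons, 53.0% in the 9005 of longer ones and 49.1% in the 47365 of last exons. The lower DMSO level in shorter internal exons is thus shared with all genes. The share of sites that fell in shorter internal exons was 17.1% in the receptors against 34.5% over all genes, a difference that was not tested.

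The insulin-type receptors differed in how much could be read. IGF1R had 69 tested sites, with 11.2% and 10.8% of reads A with STM3675, against 33.4% and 35.9% with DMSO (difference -23.7 points, adjusted p = 4.8e-14). Its largest fall, -80.7 points, was at 98707934 in internal exon 2, with 12.9% and 16.9% with STM3675, against 94.5% and 96.5% with DMSO, and its highest level was at 98961735, 4674 nt into the last exon, with 38.3% and 33.3% with STM3675, against 98.0% and 94.6% with DMSO. The smallest IGF1R fall, -21.6 points, was at 98958209 (adjusted p = 5e-05), a call that was lost without STM3675 replicate 2 (adjusted p = 0.063). IGF1R also held the 1 receptor site that rose, 98959296 (ccAtc, outside DRACH), with 8.70% and 19.1% of 46 and 47 reads with STM3675, against 2.63% and 0% of 38 and 43 reads with DMSO. The quasi-binomial adjusted p was 0.027, against 0.061 when sites with 10 reads were tested too, and the call was also lost under limma (0.073) and without any 1 of the 4 libraries (0.10 to 0.35). Its 0 of 43 reads allows a level of up to 6.98% (3 reads, counting error only).

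In INSR 3 sites reached 20 reads in all 4 libraries, all in the last exon and all lower. Their reads were A in 4.60% and 6.59% with STM3675, against 79.2% in both DMSO libraries (difference -73.6 points, adjusted p = 6.4e-09). The size rests on which sites are tested: it was -28.9 points when sites with 10 reads were added and -49.2 points without DMSO replicate 2, which also changes the sites tested. At 7116286 none of 22 and 24 reads was A with STM3675, against 84.4% and 87.5% of 32 and 24 reads with DMSO. Those counts of 0 allow levels of up to 13.6% and 12.5%. At 7116278 the levels were 12.5% and 20.8% with STM3675, against 73.0% and 72.7% with DMSO. With so few sites the INSR value is not to be set beside genes with many tested sites outside DRACH.

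AXL and DDR1 had low gene levels with DMSO, but 17 of 22 and 33 of 49 of their tested sites lay outside DRACH. Over tested DRACH sites alone the DMSO mean was 19.3% in AXL and 36.3% in DDR1, against 29.3% in ERBB2. In AXL 9.51% and 9.09% of reads at 22 tested sites were A with STM3675, against 25.4% and 26.3% with DMSO (difference -16.5 points, adjusted p = 2.3e-12). A single AXL DRACH site was at 25% or more, 41257627, which lies 2 nt before the end of internal exon 19 and had 7.91% and 7.17% of 797 and 739 reads with STM3675, against 38.0% of 1020 and 882 reads with DMSO. In DDR1 12% and 12.3% of reads at 49 tested sites were A with STM3675, against 24.6% and 26.3% with DMSO (difference -13.3 points, adjusted p = 4e-14). Its site at 30899482 had 10.5% and 10.7% of 1469 and 1343 reads with STM3675, against 63.4% and 69.9% of 806 and 833 reads with DMSO. The highest DDR1 level was at 30899427, with 14.3% and 11.1% with STM3675, against 63.5% and 72.4% with DMSO, and the smallest fall was -12.1 points at 30899617 (adjusted p = 0.0044). That call was lost under limma (adjusted p = 0.21) and without DMSO replicate 2, STM3675 replicate 1 or STM3675 replicate 2 (-6.49, -11.0 and -13.3 points, adjusted p = 0.31, 0.25 and 0.15). At the level of genes 9 of 9 receptors tested fell, against 81.7% of 11227 genes. No FGFR1 site reached 20 reads in all 4 CAOV3 libraries, so its m6A could not be tested there.

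The second comparison took read coverage in the same 4 libraries. Coverage is the A and G reads summed over all listed sites of a gene, as CPM (counts scaled to a common library total) after TMM scaling, so a read that spans several sites counts at each and levels are compared within a gene only. DDR1, ERBB3, ERBB2 and MET were higher with STM3675, and AXL and EGFR lower. In bulk libraries fewer cells and less RNA per cell cannot be told apart. With edgeR's quasi-likelihood test and Benjamini-Hochberg adjustment, 6 of 10 receptors passed against 52.8% of 12836 genes, 4 higher (background 27.0%) and 2 lower (background 25.7%). The count is near the background and is not a result about the receptors.

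DDR1 had 874 and 881 CPM with STM3675, against 430 and 442 CPM with DMSO, a 2.01-fold difference (log2 1.01, SE 0.0663, edgeR adjusted p = 2e-06). ERBB3 had 139 and 134 CPM with STM3675, against 70.8 and 66.8 CPM with DMSO, which is 1.99-fold (log2 0.99, SE 0.0760, adjusted p = 4.5e-06). Coverage was higher with STM3675 at 49 of 49 well covered DDR1 sites and at 19 of 19 ERBB3 sites, and it was higher in internal exons (2.19-fold and 1.93-fold) and last exons (1.74-fold and 2.07-fold) alike. DDR1 and ERBB3 had the 2 largest rises among the receptors. Counts of sites, here and below, only describe the gene difference and are not separate support, since sites of a gene share reads and libraries.

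ERBB2 had 131 and 125 CPM with STM3675, against 83.2 and 95.2 CPM with DMSO, which is 1.44-fold (log2 0.52, SE 0.0847, adjusted p = 0.00058), and it was higher at 34 of 34 sites. MET had 622 and 608 CPM with STM3675, against 451 and 413 CPM with DMSO, which is 1.42-fold (log2 0.51, SE 0.0716, adjusted p = 0.00023), and it was higher at 54 of 56 sites. Taken at the single most covered site of each gene, DDR1 was higher by a log2 of 0.40 (adjusted p = 0.081) and MET by 0.46 (adjusted p = 0.097), and neither passed, while ERBB2 was higher by 0.93 (adjusted p = 0.014).

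AXL had 139 and 147 CPM with STM3675, against 234 and 225 CPM with DMSO, which is 0.623-fold (log2 -0.68, SE 0.0724, adjusted p = 3.6e-05), and it was lower at all 28 of its well covered sites. EGFR had 757 and 718 CPM with STM3675, against 933 and 802 CPM with DMSO, which is 0.850-fold (log2 -0.23, SE 0.0825, adjusted p = 0.035). The EGFR call rested on single libraries: it was lost without DMSO replicate 1 (log2 -0.11, adjusted p = 0.075), without STM3675 replicate 1 (log2 -0.27, adjusted p = 0.15) and without STM3675 replicate 2 (log2 -0.20, adjusted p = 0.29). At the single most covered EGFR site the log2 was -0.84 (adjusted p = 0.012).

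The other 4 receptors did not pass. IGF1R had 227 and 240 CPM with STM3675, against 277 and 249 CPM with DMSO (0.888-fold, adjusted p = 0.087). EPHA2 had 329 and 303 CPM with STM3675, against 371 and 345 CPM with DMSO (0.883-fold, adjusted p = 0.065), and INSR had 39.8 and 39.7 CPM with STM3675, against 37.2 and 32.5 CPM with DMSO (1.14-fold, adjusted p = 0.14). FGFR1 rested on 62 and 38 reads with STM3675, against 51 and 67 reads with DMSO (0.656-fold, adjusted p = 0.099). Scaling to library totals alone shifts the median of all genes by -0.13 on the log2 scale, and with it 4 receptors were higher and 5 lower, IGF1R, EPHA2 and FGFR1 being added to the lower ones. Over all genes 51.2% of calls were higher with TMM scaling and 34.9% with library totals.

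**Figure D3:**
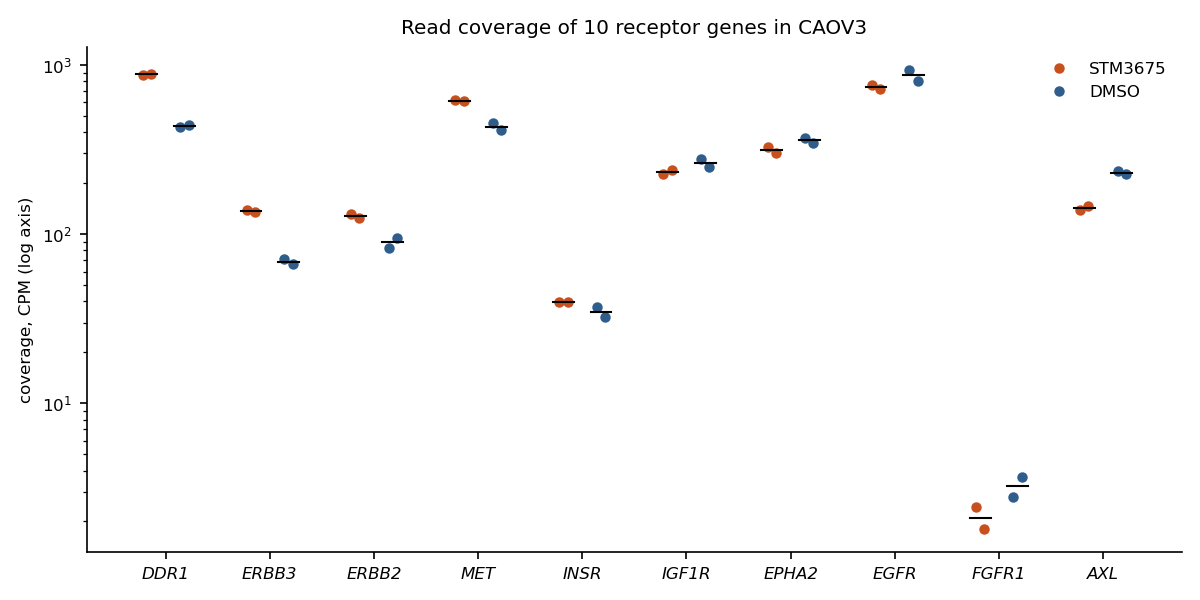
Read coverage (y axis, CPM, log axis) of the 10 receptor genes in CAOV3 with STM3675 (left, orange) and DMSO (right, blue), ordered by the fold change; points are libraries and black bars means of 2. DDR1 and ERBB3 are about 2.01-fold and 1.99-fold higher with STM3675, and AXL is 0.623-fold.

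Beside the fall of m6A in all 9 genes tested, coverage lay between 0.623-fold in AXL and 2.01-fold in DDR1. Whether the m6A and coverage differences are related was not tested.

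The third comparison set the 6 lines with DMSO side by side. All 10 receptors differed in coverage over the lines (edgeR adjusted p of 1.8e-08 or less), as did 99.1% of 13716 genes, so a call by itself says little. Against the mean of the other 5 lines 5 receptors were higher and 4 lower in A549 (background 37.2% and 32.0%), 5 and 3 in CAOV3 (39.8% and 34.1%), 5 and 3 in COV644 (39.6% and 35.1%), 5 and 5 in EFO21 (38.5% and 33.7%), 4 and 6 in OE21 (39.1% and 35.9%), and 4 and 5 in SKOV3 (38.2% and 32.5%). The lines are different tumours, and cell type and growth conditions cannot be told apart from them.

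EGFR was highest in OE21, with 7683 and 7774 CPM, followed by COV644 with 1284 and 1247, CAOV3 with 909 and 778, A549 with 534 and 448, SKOV3 with 441 and 455, and EFO21 with 127 and 142. The A549 and SKOV3 libraries overlapped, and the highest mean was 57.6-fold the lowest. OE21 was above the mean of the other 5 lines by a log2 of 3.95 (SE 0.0751, edgeR adjusted p = 5.9e-15, background 39.1% higher). ERBB2 was highest in SKOV3, with 4440 and 3714 CPM, followed by COV644 with 158 and 148, EFO21 with 112 and 96.1, A549 with 94.7 and 93.7, CAOV3 with 81.1 and 92.2, and OE21 with 61.5 and 56.1. The other 5 lines lay between 56.1 and 158 CPM with no overlap of neighbours, and the ratio of the highest mean to the lowest was 69.4. SKOV3 exceeded the mean of the others by a log2 of 5.43 (SE 0.0752, adjusted p = 3.4e-15, background 38.2% higher). Copy number was not analysed here.

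ERBB3 averaged 76.6 ± 2.36 CPM in COV644, 66.9 ± 2.96 in CAOV3, 42.0 ± 0.907 in OE21, 7.52 ± 0.110 in A549, 4.34 ± 1.18 in EFO21 and 1.84 ± 0.153 in SKOV3 (SD, n = 2 each here and below). The 3 lines with ERBB3 were set apart from the 3 nearly without it, and SKOV3, highest in ERBB2, was lowest in ERBB3. MET averaged 1448 ± 29.0 CPM in EFO21, 728 ± 65.4 in A549, 420 ± 27.5 in CAOV3, 301 ± 4.11 in COV644, 233 ± 4.15 in SKOV3 and 193 ± 1.30 in OE21. No neighbours in these 2 orders overlapped, and EFO21, highest in MET, was lowest in EGFR.

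IGF1R averaged 800 ± 60.0 CPM in A549, 607 ± 27.7 in EFO21, 564 ± 6.47 in OE21, 365 ± 11.7 in COV644, 256 ± 20.1 in CAOV3 and 130 ± 5.93 in SKOV3. INSR averaged 142 ± 0.879 CPM in EFO21, 59.2 ± 3.14 in SKOV3, 38.4 ± 3.20 in A549, 33.9 ± 3.32 in CAOV3, 4.62 ± 0.759 in OE21 and 2.59 ± 0.258 in COV644, with A549 and CAOV3 overlapping. The spread was thus 6.17-fold for IGF1R and 54.9-fold for INSR, and COV644 and OE21, lowest in INSR, stood in the middle of the IGF1R order.

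AXL averaged 249 ± 13.9 CPM in SKOV3, 223 ± 7.21 in CAOV3, 219 ± 4.46 in A549, 70.2 ± 14.6 in COV644, 47.8 ± 3.76 in EFO21 and 3.58 ± 0.409 in OE21, with CAOV3 and A549 overlapping. OE21, the line with the most EGFR and with squamous markers, thus had the least AXL, below the mean of the others by a log2 of -5.21 (SE 0.157, adjusted p = 7.1e-13, background 35.9% lower). EPHA2 averaged 348 ± 19.0 CPM in CAOV3, 311 ± 15.2 in EFO21, 257 ± 40.9 in COV644, 225 ± 10.8 in A549, 186 ± 23.3 in SKOV3 and 74.5 ± 12.2 in OE21, with COV644 and A549 overlapping. It was the most even of the 10, with a ratio of 4.67 between highest and lowest.

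DDR1 averaged 553 ± 38.0 CPM in OE21, 424 ± 6.25 in CAOV3, 385 ± 20.6 in COV644, 163 ± 4.43 in EFO21, 121 ± 2.23 in A549 and 86.0 ± 4.32 in SKOV3. FGFR1 averaged 214 ± 5.22 CPM in A549, 96.7 ± 9.79 in SKOV3, 79.6 ± 6.56 in EFO21, 54.4 ± 5.13 in COV644, 3.15 ± 0.603 in CAOV3 and 2.14 ± 0.832 in OE21, with the last pair overlapping. DDR1 and ERBB3 were highest in the same 3 lines, OE21, CAOV3 and COV644.

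**Figure D4:**
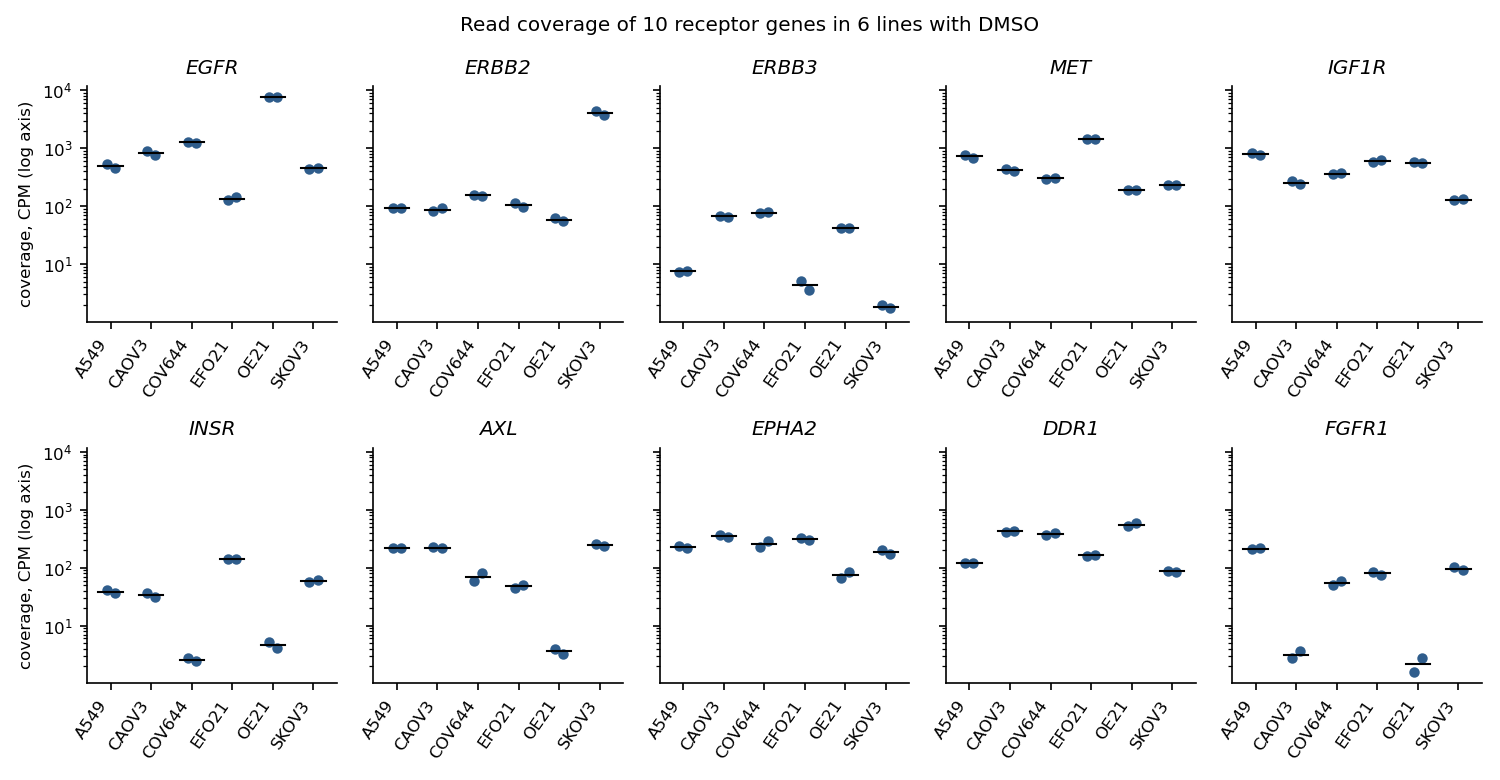
Read coverage (y axis, CPM, log axis) of each receptor gene in 6 lines with DMSO; points are the 2 libraries of a line and black bars their mean. EGFR in OE21 (7729 CPM) and ERBB2 in SKOV3 (4077 CPM) stand above all other values, and libraries of a line lie close together.

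For each receptor the genes whose coverage pattern over the 12 DMSO libraries was most like its own were found by Pearson's r of log2(CPM + 0.5). They are SLCO3A1 (0.994) and CDC42SE1 (0.983) for EGFR, and PCDH11Y (0.987) and LDLRAD4 (0.983) for ERBB2. PCDH11Y has a near-identical copy on the X chromosome, so its reads are uncertain. For ERBB3 they are SGK1 (0.986) and MTARC1 (0.977), for MET P2RY6 (0.990) and MNX1 (0.985), and for IGF1R TSR1 (0.968) and C15orf39 (0.964). For INSR they are PCDHB5 and CAP2 (0.979 each), for AXL TRPC1 (0.992) and TPM2 (0.991), for EPHA2 UNC50 (0.979) and SPCS2 (0.970), for DDR1 CORO1B (0.992) and ARHGAP8 (0.988), and for FGFR1 IGFBP3 (0.989) and KLHL9 (0.988). With 6 lines of 2 libraries each these values rest on 6 independent points at most and are a description only.

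The fourth comparison asked where receptor m6A differed among the 6 lines with DMSO. EGFR had the highest share of called sites, but its sites also had many reads. At EGFR 55211180 the OE21 libraries had 3216 and 2702 reads, against medians of 17 and 20 reads per site in those libraries. More reads make a difference easier to call, and the EGFR share was not separated from depth. Of the receptor sites 140 had 20 reads in all 12 DMSO libraries, and 81 of them were called by the quasi-binomial model with Benjamini-Hochberg adjustment, against 39.5% of 68873 sites. By gene the calls were 25 of 26 sites in EGFR, 19 of 33 in IGF1R, 16 of 42 in MET, 13 of 20 in DDR1, 4 of 8 in ERBB2 and 4 of 11 in EPHA2. Among DRACH sites 44 of 80 were called (background 39.1%), and outside DRACH 37 of 60 (background 40.0%). By limma on arcsine-square-root fractions, which gives each library the same weight whatever its reads, 3 of the 140 sites were called and 651 of all sites (0.945%). After correction for the background of each library limma called 0 of 140 (36 at an unadjusted p under 0.05) and 186 of all sites (0.270%), and with the background from sites outside the listing rule it called 1 of 140 and 211 of all sites (0.306%). The calls of single sites thus depend on the model, and values are given first below. By gene 5 of 6 were called (background 62.5%). Against the mean of the other 5 lines the lowest adjusted p of the 6 genes in A549 was 0.075, in EGFR (background 7.84% of genes called), while 3 genes were called in CAOV3 (40.1%), 2 in COV644 (20.7%), 1 in EFO21 (11.8%), 4 in OE21 (42.3%) and 1 in SKOV3 (12%).

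Summed over its 26 tested sites, EGFR m6A was 53.8% and 52.8% in CAOV3, 49.7% and 49.5% in EFO21, 49.2% and 48.9% in A549, 48.4% and 47.8% in SKOV3, 43.5% and 43.3% in COV644, and 36.9% and 38.3% in OE21. OE21 and COV644 were below the other 4 lines with no overlap (quasi-binomial adjusted p over the lines = 7.4e-11, limma adjusted p = 0.0037, and 0.055 and 0.022 after correction with the first and the second background measure). OE21 was the line with the highest EGFR coverage and also the lowest EGFR m6A, but COV644 and OE21 also have the lowest background, whose part was taken into account in the corrected values alone. Against the mean of the others EGFR passed in OE21 (adjusted p = 1.5e-10), CAOV3 (1.1e-06) and COV644 (0.00076).

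Within the EGFR last exon the lines differed by position. The 15 DRACH sites tested over the lines fall into a nearer group of 6, from 561 to 1356 nt into the exon, and a farther group of 9, from 3081 to 6076 nt, a division made after the values were seen. The nearer sites averaged 77.5% ± 1.2 in COV644, 73.5% ± 0.35 in CAOV3, 71.2% ± 0.11 in A549, 70.0% ± 0.88 in EFO21, 69.7% ± 0.81 in SKOV3 and 64.8% ± 0.21 in OE21 (SD, n = 2). The farther sites averaged 42.4% ± 0.65 in CAOV3, 39.3% ± 0.54 in A549, 37.3% ± 0.37 in EFO21, 35.8% ± 0.61 in SKOV3, 23.1% ± 0.24 in COV644 and 20.0% ± 0.29 in OE21. COV644 was thus the highest line at the nearer sites and the second lowest at the farther ones. At single sites COV644 was the highest line at 4 of the 6 nearer sites, and OE21 was the lowest at 7 of the 9 farther ones and COV644 at the other 2.

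After background correction the farther sites averaged 35.4% in CAOV3, 32.1% in A549, 29.3% in EFO21, 25.6% in SKOV3, 20.1% in COV644 and 16.7% in OE21, and the nearer ones 76.6% in COV644 against 63.4% to 70.2% in the others. The SKOV3 libraries then stood at 27.9% and 23.2%, against 36.2% and 35.3% as deposited, because of the background of replicate 2. With the background from sites outside the listing rule, a measure added after seeing the data, the farther sites averaged 37.1% in CAOV3, 33.5% in A549, 31.6% in EFO21, 29.8% in SKOV3, 20.4% in COV644 and 17.0% in OE21, and the nearer ones 76.7% in COV644 against 63.5% to 71.0% in the others. COV644 was the highest line at the nearer sites, and OE21 and COV644 the lowest at the farther ones, under both corrections. With the parts divided at 3500 nt COV644 was not the highest at the nearer sites, with 63.8% against 66.7% in CAOV3. The farther part held 45.3% and 48.4% of last-exon reads in COV644, 41.6% and 42.0% in OE21, and between 37.5% and 46.1% in the DMSO libraries of the other 4 lines. The difference between the parts was not tested as such.

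The largest range of line means was at 55211180, 5924 nt into the exon. It had 70.1% and 76.7% in CAOV3, 76.6% and 66.9% in A549, 51.3% and 77.4% in EFO21, 64.1% and 60.2% in SKOV3, 49.2% and 46.6% in COV644, and 36.3% and 36.9% in OE21 (range 36.9 points, quasi-binomial adjusted p = 1.7e-55). Its reads ran from 31 to 3216 per library. OE21 and COV644 lay below every other library there.

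**Figure D5:**
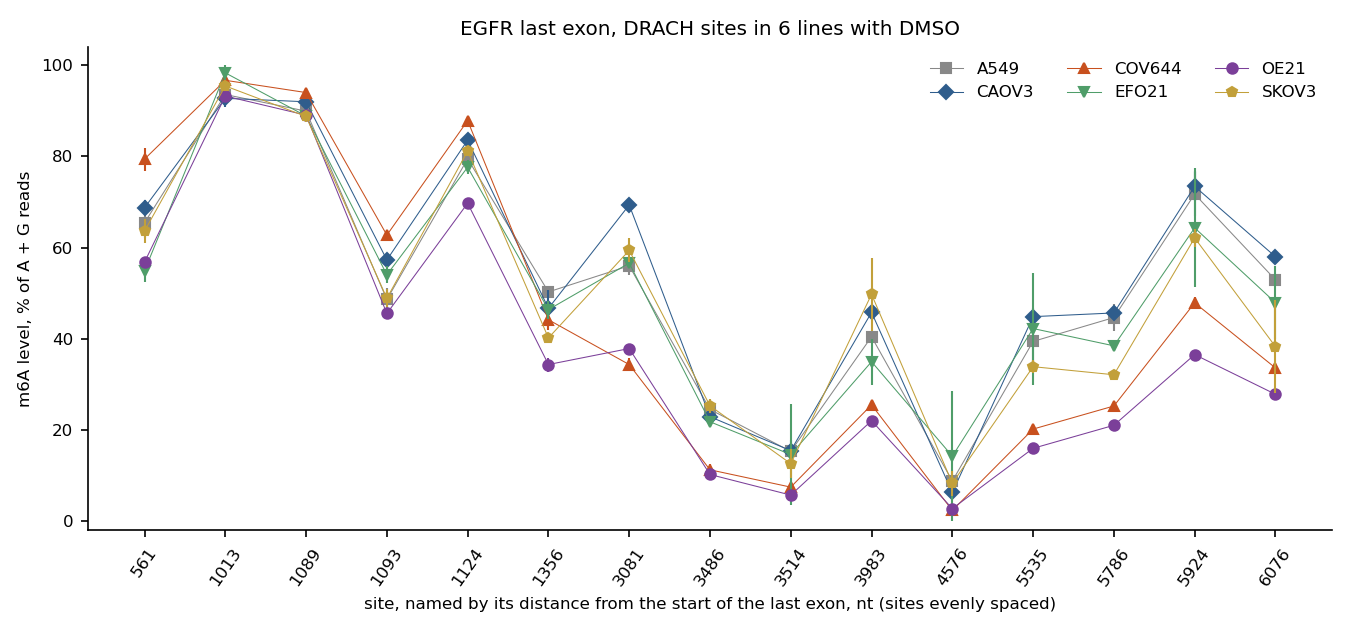
m6A level (y axis, % of A and G reads) of the 15 DRACH sites of the EGFR last exon tested in 6 lines with DMSO; the x axis names each site by its distance in nt from the start of the exon, with sites evenly spaced, points are means of 2 libraries and bars join the libraries. COV644 is highest at 4 of the 6 sites before 2000 nt, and OE21 and COV644 are the lowest lines at the sites from 3081 nt on.

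MET was lowest in OE21, at 32.0% and 31.9% of reads over 42 tested sites, against 37.6% to 45.0% in the other 10 libraries (adjusted p over the lines = 6.5e-06, limma 0.024, and 0.17 and 0.2 after the 2 corrections). Its called site with the largest range, 116798127, had 62.2% and 56.6% in CAOV3 and 24.3% and 38.1% in OE21, with 21 to 166 reads. IGF1R was also lowest in OE21, at 31.9% and 32.4%, against 35.3% to 41.4% elsewhere (adjusted p = 0.0093, limma 0.039, 0.051 and 0.2 after the 2 corrections, and 0.063 without OE21 replicate 1). Its widest called site, 98962427, had 44.8% and 75.0% in SKOV3 and 100.0% and 91.4% in CAOV3, so the 2 SKOV3 libraries themselves lay far apart. EPHA2 passed by gene (adjusted p = 0.012), but not under limma (0.42) or at coverage minima of 10 and 50 reads (0.067 and 0.36). DDR1 passed (adjusted p = 0.022, limma 0.013), but not after the 2 corrections (0.68 and 0.46), without CAOV3 replicate 2 (0.05) or without EFO21 replicate 2 (0.12). ERBB2 did not pass (adjusted p = 0.74), though it did under limma (0.023) and at a coverage minimum of 10 (0.00064).

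Several sites were close to constant. EPHA2 16125127 stood between 96.5% and 99.2% in all 12 DMSO libraries, and MET 116699383 between 90.7% and 100.0%. Neither passed the test over the lines (adjusted p = 0.90 and 0.51). The widest called EPHA2 site, 16124790, had 55.3% and 56.0% in EFO21 and 75.2% and 70.7% in CAOV3. The widest called sites of ERBB2 and DDR1 lay outside DRACH and were low in COV644 and OE21, the lines of lowest background, whose part in this was not tested. ERBB2 39727503 (tgAga) had 25.0% and 23.8% in A549 and 0% of 22 and 32 reads in OE21, which allows up to 13.6% and 9.38%. It was listed through A549 replicate 1 and CAOV3 replicate 2 alone, both at 25.0%. DDR1 30892066 (agAgt) had 18.2% and 29.2% in SKOV3 and 2.70% and 3.75% in COV644. That site was listed through SKOV3 replicate 2 alone. The high lines at both sites were thus picked while high, and the ranges are not evidence of a line difference.

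ERBB3, INSR, AXL and FGFR1 were too low in at least 1 line for the test over all lines, and their levels are given where a line had 20 reads in both libraries. INSR had 15 such DRACH sites in EFO21, averaging 55.2% and 56.6%, the highest being 94.8% at 7116904 (ggAct), where A549 had 86.9% and SKOV3 84.6%. FGFR1 had 12 in A549, 9 in SKOV3, 8 in EFO21 and 5 in COV644, and its highest site, 38411864 in the last exon on chromosome 8, had 84.0%, 81.1%, 80.1% and 86.9% there. ERBB3 56101960 had 84.6% in CAOV3, 78.6% in OE21 and 71.6% in COV644. The AXL site at the end of exon 19, 41257627, had 38.0% in CAOV3 and between 22.0% and 24.2% in A549, COV644, EFO21 and SKOV3, with 99 to 1394 reads per library.

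Around the receptors, genes of the pathway were read from lists of ligands, relays, inhibitors and processing factors, named by the largest and smallest m6A differences and the largest coverage changes. Over all genes tested 81.7% fell in m6A, and in coverage 27.0% were higher and 25.7% lower. Of 18 other receptor tyrosine kinases tested 16 fell in m6A (background 81.7%), with a median difference of -19.4 points, against -20.1 points over all genes tested. LMTK3 fell to 10.7% and 10.6%, against 72.7% and 79.7% with DMSO, and EPHB3 and STYK1 fell by 43.3 and 31.2 points. PTK7 (-5.31 points) passed and MERTK (-3.28 points, adjusted p = 0.69) did not. In coverage 7 of 24 were higher (background 27.0%) and 4 lower (25.7%): LMTK3 had 54.4 and 61.3 CPM with STM3675, against 9.25 and 15.5 CPM with DMSO (4.67-fold), FGFR2 was 1.81-fold, and KIT 0.367-fold.

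Of 14 ligands tested 13 fell in m6A (background 81.7%, median -25.0 points), led by the ephrins EFNA1 (9.74% and 10.0% with STM3675, against 50.9% and 49.1% with DMSO), EFNA4 (-31.9 points) and EFNB1 (-30.9 points). PROS1, a ligand of the AXL family, fell by 3.05 points (adjusted p = 0.014), and EFNA3 differed by -7.14 points without passing (adjusted p = 0.28). In coverage 4 of 17 ligands were higher (background 27.0%) and 6 lower (25.7%), shares near those of all genes. Among the lower ones were growth factors of the ERBB receptors: AREG had 1.80 and 1.42 CPM with STM3675, against 5.09 and 6.33 CPM with DMSO (0.284-fold, edgeR adjusted p = 0.00027), EREG had 2.81 and 3.59 CPM against 10.9 and 7.87 CPM (0.339-fold, adjusted p = 0.00033), and NRG4 had 1.64 and 1.09 CPM against 6.02 and 7.32 CPM (0.208-fold, adjusted p = 8.7e-05). All 3 are low in CAOV3 and were named for the largest coverage changes of the list. They do not stand for the other ERBB ligands, whose coverage is not given here.

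Of 33 adaptors and relays 29 fell in m6A (background 81.7%, median -20.8 points), CRK by 47.0 and SHC1 by 38.6 points, while MAP2K2 (-0.903 points, adjusted p = 0.69) did not pass. In coverage 11 of 33 were higher (background 27.0%) and 10 lower (25.7%), with NCK1 at 2.59-fold, CRK at 1.69-fold and MAP2K2 at 0.595-fold. Of 30 inhibitors and feedback regulators 27 fell in m6A (background 81.7%, median -19.6 points), among them CBLB, a ubiquitin ligase that removes receptors, by 51.7 points, ERRFI1, an inhibitor of EGFR, by 51.3 points, and DUSP5 by 48.5 points. CBL fell by 4.12 points (adjusted p = 0.014), and SH3KBP1 differed by -2.28 points without passing (adjusted p = 0.15). In coverage 7 of 33 were higher (background 27.0%) and 9 lower (25.7%). DUSP6, a phosphatase of ERK, had 119 CPM in both STM3675 libraries, against 235 and 215 CPM with DMSO (0.528-fold, adjusted p = 6.7e-06), SPRED3 was 0.294-fold and LRIG3 1.90-fold.

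Of 14 shedding and processing genes 11 fell in m6A (background 81.7%, median -20.5 points), ST14 by 48.5, IGFBP3 by 42.4 and ADAM10 by 32.2 points, while IGFBP6 (-1.98 points) and IGFBP2 (-5.40 points) did not pass. In coverage 9 of 14 were higher (background 27.0%), with a median log2 of 0.36 against -0.01 over all genes, as a description of the list. IGFBP3, a carrier of insulin-like growth factors, had 113 and 106 CPM with STM3675, against 27.9 and 31.5 CPM with DMSO (3.68-fold, adjusted p = 4.5e-07). RHBDF2 and ADAM17, which help to release EGFR ligands from the membrane, were 1.65-fold and 1.46-fold.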

How the data were processed

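GLORI libraries of polyadenylated RNA, 14 in all, were used. The authors deposited A and G read counts and the m6A fraction (A over A plus G) of each listed site in each library. The submitters' processing notes name cutadapt, STAR and GRCh38, without versions or a tool that called sites. A test of the table showed that every listed site reached 25% with 20 reads or more in some DMSO library. Of the table's sample columns, 0 belonged to other samples.

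Sites with 20 reads in every library compared were tested by a quasi-binomial logistic model of A and G counts, with the dispersion moderated in limma 3.58.1, held at 1 or more and close to one common value (1.67 in CAOV3, 1.71 among lines). A site whose libraries spread more widely is therefore called too readily. Contrasts of 1 line added 0.5 to A and to G. Gene m6A summed A and G reads over tested sites, and coverage summed reads over all listed sites and used edgeR 4.0.16 (quasi-likelihood, TMM). Tests ran over all sites or genes, with Benjamini-Hochberg adjusted p under 0.05, in R 4.3.3 and Python 3.11.15 with numpy 2.4.6 and pandas 2.3.3. They were also run on simulated data. For m6A the simulated spread was set close to the fitted common value, so those runs do not check sites whose libraries spread more widely. Alternatives were limma on transformed fractions, correction for the median level outside DRACH in each library (over all such sites or, added after seeing the data, over those that passed the listing rule in no library of the line), coverage minima of 10 and 50, library totals, DESeq2 1.42.0, single sites, a replicate block and leaving out each library, with the spread then pooled, so that a lone library is assumed to vary like the others. Libraries held 14047302 to 28663588 reads at listed sites, with a median of 16 to 32 per site; intervals and limits cover counting error only, and duplicate reads are not known.

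The 10 genes, the lists and the tests were chosen with earlier results of these data known. Named sites are, per gene, the highest with DMSO, the largest and smallest fall among sites at 25% or more, and the largest range over lines among called sites; in each list, the largest and smallest m6A differences and the largest coverage changes are named. Some genes that this rule names are not reported here. Any further site named, in EGFR, MET, INSR and FGFR1 among others, was chosen after its values were seen. All comparisons over lines share the CAOV3 DMSO libraries with the STM3675 comparison. Replicate numbers did not pair the libraries.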

Additional observations from a re-analysis of the deposited data

How the results depend on the processing

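Under every alternative run the STM3675 comparison of m6A kept its direction: between 109 and 155 receptor sites fell (145 as reported), between 90 and 130 DRACH sites (121 as reported) and every gene tested (9, or 8 at a coverage minimum of 50). The 1 site that rose was called under 1 alternative, with sites that passed in another line, and 5 sites rose under limma with background correction. The calls over the 6 lines depended on the model. Of 81 called sites, 29 were called at a coverage minimum of 50, 3 by limma, 0 by limma with background correction (36 at an unadjusted p under 0.05) and 1 with the background from sites outside the listing rule, a measure added after seeing the data. Of 44 DRACH sites these settings left 23, 1, 0 and 0. Calls of 1 line against the others numbered 122 for sites as reported, 8 by limma and 3 and 2 with the 2 corrections, and 11 for genes as reported and 1 and 2 with the corrections, which left 0 (2 at an unadjusted p under 0.05) and 1 of 5 genes called over the lines. In coverage, 4 receptors were higher as reported and 2 at the single most covered site; 2 were lower as reported, 5 with library totals, and 1 to 4 when each library was left out. The nearer EGFR sites in COV644, 6.40 points above the mean of the 4 lines other than OE21, stood at -0.05 points when the parts were divided at 3500 nt, which takes the nearer part to 8 sites. With a replicate block 143 receptor sites fell, 121 of them in DRACH, 81 sites and 5 genes were called over the lines, and EPHA2 joined the receptors with lower coverage (log2 -0.18, edgeR adjusted p = 0.041). The site that rose in IGF1R was then no longer called. Same-numbered libraries did not deviate together (correlations of -0.032 to 0.0161 over 15 pairs of lines, and -0.00139 in CAOV3), so the numbers were not used as pairs. At 20 reads a difference of a few points cannot be resolved.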
